A study of Mus musculus with 48 samples.

Results

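The genes described here make and load MHC class I, the cell-surface molecule that shows peptides from inside the cell to T cells. They were chosen by name: H2-D1, H2-K1, H2-Q10, H2-T23, B2m, Tap1, Tap2, Tapbp, Psmb8 and Psmb9. Every probe set (a group of short probes read as 1 value) whose only gene symbol in the platform table is one of these 10 names was taken, which gave 16 of the 12422 probe sets tested and covered 9 of the 10 genes, out of 8251 genes named by such probe sets. H2-D1, H2-K1 and Tapbp have 3 probe sets each and Tap1 has 2. H2-Q10, B2m, Tap2, Psmb8 and Psmb9 have 1 each. H2-T23 is named only by probe sets that list several genes. There are 4 probe sets that list a member among several symbols, and they are not counted with the 16.

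Expression was measured in 4 mouse tissues (liver, heart, spleen, lung) from 2 inbred strains, C57BL/6J and A/J, with a time 1 and a time 2 for every tissue. What these times stand for is not stated in the labels. The 48 samples were each read on 1 Affymetrix MG-U74Av2 array and fall into 16 groups of 3 male littermates aged 3 months. No group carried a treatment or an engineered allele in the labels. The sources do not say whether several tissues came from one mouse, and littermates share a litter, so p-values measure the spread between these animals. Values are on the log2 scale as the authors deposited them. A log2 difference of 1 is a doubling.

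In a class I molecule a heavy chain, encoded by H2-K1 or H2-D1, pairs with the light chain B2m (beta-2 microglobulin). The immunoproteasome, of which Psmb8 and Psmb9 are catalytic subunits, cuts proteins into peptides, the Tap1-Tap2 transporter moves them into the endoplasmic reticulum, and Tapbp (tapasin) holds the empty molecule at the transporter until a peptide binds. H2-Q10 is a class I heavy chain that liver secretes, and H2-T23 encodes the non-classical molecule Qa-1. Interferon gamma raises the expression of most of these genes. H2-K1 and H2-D1 are among the most polymorphic genes known, and the strains carry different alleles: A/J has the k allele of H2-K1 and the d allele of H2-D1, and C57BL/6J has the b allele of both. All members except B2m lie on chromosome 17, in or beside the MHC.

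The promoters are shown because several members varied together between arrays, as given below, and H2-Q10 was high in liver alone, unlike the other heavy chains. RefSeq promoter sequences of assembly GRCm38.p6, which is the C57BL/6J genome, were found for 9 of the 10 genes. Tap2 had no entry. Each stretch below is written 5′ to 3′ along the gene's strand and lies upstream of a start in the RefSeq table. It covers chr17:34000349-34000490 on the minus strand for H2-K1, chr17:35262891-35263032 on the plus strand for H2-D1 and chr17:35469881-35470022 on the plus strand for H2-Q10. Capitals mark, in order, the 11-base element of the class I enhancer, the run GTTTCACTTCT, and, in H2-K1 and H2-D1, the CREB core TGACG.
H2-K1: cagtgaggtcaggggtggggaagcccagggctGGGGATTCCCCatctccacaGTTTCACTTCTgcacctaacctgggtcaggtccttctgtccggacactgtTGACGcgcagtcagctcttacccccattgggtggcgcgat
H2-D1: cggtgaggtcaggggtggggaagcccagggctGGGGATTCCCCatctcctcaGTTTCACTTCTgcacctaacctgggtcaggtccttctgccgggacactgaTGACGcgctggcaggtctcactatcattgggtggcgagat
H2-Q10: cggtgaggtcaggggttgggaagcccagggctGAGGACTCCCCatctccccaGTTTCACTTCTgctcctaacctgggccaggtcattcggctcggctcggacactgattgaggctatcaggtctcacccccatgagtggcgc

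Over the 70 aligned bases, taken without gaps, H2-K1 and H2-D1 shared 69 (98.6%), while H2-K1 and H2-Q10 shared 63 (90.0%). In the 11-base element H2-K1 and H2-D1 were identical, and H2-Q10 differed from H2-K1 by G2A and T6C, with positions counted from 1 at the element's 5′ end. The NF-kappa B pattern GGGNNTTCCC, searched on both strands in the 250 bases before the start, matched H2-K1 and H2-D1 and 1.53% of all 32851 promoters. The run GTTTCACTTCT was read from the H2-K1 promoter itself, so its match there was fixed in advance. It also matched H2-D1 and H2-Q10, and 0.0517% of all promoters. H2-D1 and H2-Q10 share most of the aligned bases with H2-K1, so their matches are not independent of it. A match describes letters and is not a measured binding site.

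The promoters of Tap1 and Psmb9 meet: the genes are transcribed away from each other, and the 225 bases between their starts (chr17:34187331-34187555, written on the plus strand, toward Tap1) are all they have between them. B2m lies on another chromosome, and its stretch is chr2:122147518-122147686 on the plus strand. Capitals mark TGACG in both and, in B2m, the interferon response pattern GAAACTGAAA.
Tap1-Psmb9: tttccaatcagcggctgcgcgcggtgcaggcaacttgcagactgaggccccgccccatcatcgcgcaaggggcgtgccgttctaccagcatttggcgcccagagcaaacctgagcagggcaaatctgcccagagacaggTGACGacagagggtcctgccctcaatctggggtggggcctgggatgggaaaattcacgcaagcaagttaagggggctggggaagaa
B2m: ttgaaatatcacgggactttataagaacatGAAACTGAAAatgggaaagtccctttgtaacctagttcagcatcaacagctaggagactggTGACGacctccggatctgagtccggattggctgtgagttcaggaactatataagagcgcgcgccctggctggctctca

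TGACG was found in H2-K1, H2-D1, B2m, Tap1 and Psmb9 and in 17.8% of all promoters. The Tap1 and Psmb9 matches are the same letters in the bases these genes share, read along opposite strands. The general interferon pattern GAAANNGAAA was found in B2m and H2-T23 and in 2.98% of promoters. The 2 patterns do not overlap in B2m.

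Before the results, some arrays stood apart. Marker means checked the tissue labels: the liver, heart, lung and spleen lists were each higher in every array of their own tissue than in any other array. In 5 spleens and 1 liver, exocrine pancreas markers averaged 13.01 to 13.70, against at most 10.90 in the other arrays of those tissues. In 2 A/J time 1 hearts the Gapdh 3′ probe set exceeded the 5′ set by 1.34 and 1.41, against 0.08 to 0.30 in the other hearts. By the names of the scan files, liver and lung at time 1 form 1 array run, the time 1 spleens and the time 1 hearts each have a run, and a last run holds every time 2 array. Strains are therefore compared within runs, tissues are tested at time 2 alone, and time cannot be told apart from run.

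Heart had the lowest values of most class I probe sets. At time 2 all heavy chain probe sets of H2-D1, the light chain B2m and both immunoproteasome subunits were lower in heart than in liver, spleen and lung. The B2m values in A/J at time 2 were 12.43, 12.87 and 12.15 in heart, 13.94, 14.12 and 13.82 in liver, 13.85, 14.13 and 14.08 in spleen and 13.83, 13.94 and 13.73 in lung. In C57BL/6J they were 13.04, 12.76 and 12.83 in heart, 14.13, 14.08 and 14.11 in liver, 13.85, 13.84 and 14.17 in spleen and 13.80, 13.55 and 13.72 in lung. The 6 hearts did not overlap the other 18 arrays. B2m was lower in heart than in spleen by a log2 difference of -1.31 ± 0.10 (SE, adjusted p = 2.64e-11), and higher in liver than in heart by 1.35 ± 0.10 (adjusted p = 1.55e-11). Liver and spleen were neighbours that could not be separated, with a difference of 0.05 ± 0.10 (adjusted p = 0.686).

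By limma with Benjamini-Hochberg adjustment over all probe sets, 15 of the 16 were lower in heart than in spleen, where 29.8% of all probe sets were lower, and none was higher. In heart against lung 13 were lower, where 29.3% of all were, and in liver against heart 12 were higher, where 22.3% of all were. The median difference of the 16 was -1.42 between heart and spleen, -1.09 between heart and lung and 0.58 between liver and heart. Over all probe sets it was 0.07, 0.08 and -0.06. In whole tissue, fewer cells of a type and less RNA per cell cannot be told apart. The excess of the Gapdh 3′ over the 5′ probe set also differed between tissues at time 2. It was 0.08 to 0.23 in heart, 0.16 to 0.35 in liver, 0.48 to 0.90 in spleen and 1.05 to 1.96 in lung. The part of this excess in the tissue differences was not tested.

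The genes that cut and transport peptides were highest in spleen. Psmb8 at time 2 measured 12.13, 12.48 and 12.41 in A/J spleen and 12.63, 12.37 and 12.86 in C57BL/6J spleen, against 9.26, 9.86 and 9.18 in A/J heart and 9.44, 9.27 and 9.32 in C57BL/6J heart. It was 8.54-fold lower in heart than in spleen (log2 difference -3.09 ± 0.15, adjusted p = 1.05e-14) and 5.39-fold lower in liver than in spleen (-2.43 ± 0.15, adjusted p = 8.25e-13). Psmb9 was lower in heart and liver than in spleen by a difference of -2.68 ± 0.14 and -2.30 ± 0.14. Lung was intermediate for both subunits: Psmb8 was higher in spleen than in lung by 1.63 ± 0.15 and Psmb9 by 1.43 ± 0.14. The transporter gene Tap1 (103035_at) followed the same order, with spleen above lung by 1.53 ± 0.16, while liver and heart differed from spleen by -2.05 and -2.54. Tap2 was also lower in liver and in heart than in spleen, with differences of -1.17 ± 0.08 and -1.04 ± 0.08. Its liver and heart levels did not differ past the test (-0.13, adjusted p = 0.169). In A/J at time 2 Tap2 ranged from 10.21 to 10.29 in spleen and from 9.86 to 10.30 in lung, which overlap.

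H2-Q10 was a liver gene in these data. Its 12 livers ranged from 13.26 to 14.07, and its hearts, spleens and lungs from 8.72 to 9.75. At time 2 it was 31.3-fold higher in liver than in heart (log2 difference 4.97 ± 0.08), 29.3-fold higher than in lung (4.87 ± 0.08) and 20.9-fold higher than in spleen (4.39 ± 0.08). Among the other 3 tissues it was higher in spleen than in lung by 0.49 ± 0.08 (adjusted p = 2.24e-05), and heart and lung could not be separated (-0.10, adjusted p = 0.305). Hepatocyte markers averaged 9.13 to 9.93 in A/J and 7.97 to 8.79 in C57BL/6J spleens at time 2, against 7.86 to 8.30 and 8.14 to 8.37 in the lungs. At time 1 they averaged 7.96 to 8.21 in spleens and 8.45 to 10.14 in lungs, and H2-Q10 ranged from 9.12 to 9.68 in spleens and from 9.05 to 9.63 in lungs, which overlap. Their part in the spleen and lung difference was not tested. Of the members only H2-Q10 was higher in liver than in spleen: 11 of the 16 probe sets were lower in liver than in spleen (31.3% of all were lower) and 1 was higher (30.1% of all were). Liver against lung called 9, of which 7 were lower (31.7% of all) and H2-Q10 and B2m were higher (34.4% of all).

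Some heavy chain probe sets were close to the top of the arrays' range. In liver, spleen and lung the means of H2-D1 101886_f_at and 97540_f_at and of H2-K1 93120_f_at lay at the 98.9th to 99.8th percentile of all probe sets, while H2-K1 97700_at lay at the 66.9th to 75.4th. The light chain B2m lay at the 99.3rd to 99.5th in these tissues. On the time 1 arrays of these tissues the highest value was 14.31 to 14.40, and 3 to 19 probe sets shared it. H2-K1 93120_f_at reached 14.26 in C57BL/6J spleen at time 1. It reached 14.34 in C57BL/6J spleen at time 2, where the highest value of any probe set on those tissues' time 2 arrays was 14.52 to 14.67. No member held an array's highest value. Heart was lower than spleen by a difference of -1.17 ± 0.11 for 93120_f_at, -1.67 ± 0.09 for 97125_f_at and -2.11 ± 0.10 for H2-D1 101886_f_at. H2-K1 97700_at differed less, by -0.50 ± 0.09 averaged over the strains, and its liver and heart levels did not pass the test (-0.08, adjusted p = 0.476). The strains were not alike: its time 2 means in heart and spleen were 9.83 and 10.77 in A/J, and 9.43 and 9.50 in C57BL/6J. Tapbp 100154_at was lower in heart than in spleen by a difference of -1.78 ± 0.11, while 102689_at and 162104_f_at of the same gene gave -0.41 ± 0.08 and -0.36 ± 0.05. Spleen against lung called 10 of the 16, all higher, where 29.3% of all were higher. Tap1 162278_r_at passed none of the 6 tissue tests.

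**Figure D1:**
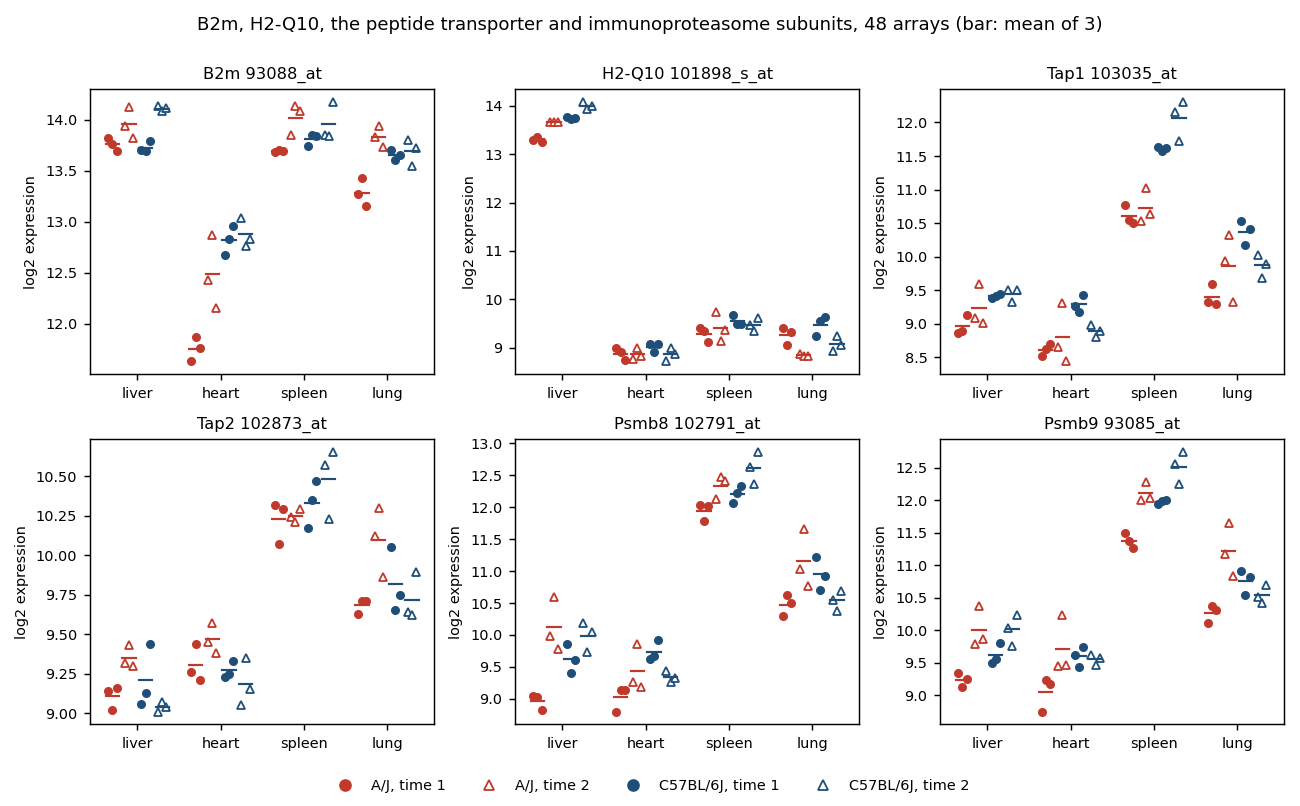
Log2 expression (vertical axis) of 6 probe sets by tissue (horizontal axis), with 1 point per array, 3 arrays per group and a bar at the group mean. H2-Q10 lies between 13.26 and 14.07 in liver and at or below 9.75 elsewhere, B2m is lowest in heart, and Psmb8, Psmb9 and Tap1 are highest in spleen.

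Strain differences were not alike between probe sets of one gene. H2-D1 97541_f_at was higher in A/J in all 4 tissues, while the other H2-D1 probe sets did not pass the test or, in heart, were lower. In spleen 97541_f_at measured 12.54, 12.06 and 12.08 at time 1 and 12.58, 13.16 and 13.00 at time 2 in A/J, against 10.80, 11.19 and 10.60 at time 1 and 11.45, 11.13 and 11.24 at time 2 in C57BL/6J. In lung it measured 11.57, 11.75, 11.77, 12.69, 12.93 and 12.56 in A/J and 10.51, 10.20, 10.13, 10.74, 10.54 and 10.60 in C57BL/6J, in the same order. The strains did not overlap in either tissue. The log2 difference, A/J minus C57BL/6J with time as a term, was 1.76 ± 0.12 in lung (3.38-fold, adjusted p = 7.04e-07), 1.5 ± 0.13 in spleen (2.83-fold, adjusted p = 9.55e-06), 1.06 ± 0.09 in liver (2.09-fold, adjusted p = 6.97e-06) and 0.87 ± 0.21 in heart (1.82-fold, adjusted p = 0.018).

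The other H2-D1 probe sets did not follow. In spleen 101886_f_at differed by -0.20 ± 0.07 (adjusted p = 0.0983) and 97540_f_at by -0.08 ± 0.05 (adjusted p = 0.364), and in lung by -0.13 ± 0.09 and 0.08 ± 0.06, none past the test. Heart was the exception, where 101886_f_at was lower in A/J by a difference of -0.57 ± 0.14 (adjusted p = 0.0215). The strain difference of 101886_f_at minus that of 97541_f_at was -1.31 in liver, -1.44 in heart, -1.70 in spleen and -1.89 in lung, each with an exact two-sided permutation p = 0.005, which is the smallest the 400 arrangements of strain labels within times allow, and an adjusted p = 0.0111 over 40 such pairs of probe sets of one gene. The pair test was chosen after the values were seen. Over the 40 pairs, 21 had an adjusted p under 0.05.

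H2-K1 showed the same split. Its 97700_at was higher in A/J in spleen, where A/J ranged from 10.59 to 10.88 and C57BL/6J from 9.31 to 9.76, with no overlap. The difference was 1.12 ± 0.09 in spleen (2.18-fold, adjusted p = 2.82e-06), 0.66 ± 0.06 in lung (1.58-fold, adjusted p = 2.48e-05), 0.29 ± 0.07 in liver (adjusted p = 0.019) and 0.26 ± 0.11 in heart, which did not pass (adjusted p = 0.2). The other 2 probe sets of H2-K1 did not pass in lung, with differences of -0.02 ± 0.04 for 93120_f_at and 0.05 ± 0.08 for 97125_f_at. Setting 93120_f_at against 97700_at gave differences of -0.49 in liver, -0.87 in heart, -1.23 in spleen and -0.68 in lung (exact permutation p = 0.005, adjusted p = 0.0111 in each). The size of the 97700_at difference varied between tissues (strain by tissue F = 20.4, adjusted p = 1.37e-06). Over both times its tissue means ran from 9.47 to 9.57 in C57BL/6J and from 9.80 to 10.69 in A/J.

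The suffix f marks a probe set whose probes are shared within a family of related sequences, so a value of such a set may hold signal of more than 1 class I gene. How the probes of each set match the A/J and C57BL/6J alleles was not tested, and a strain difference of a single probe set cannot be told apart from a difference in that match.

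**Figure D2:**
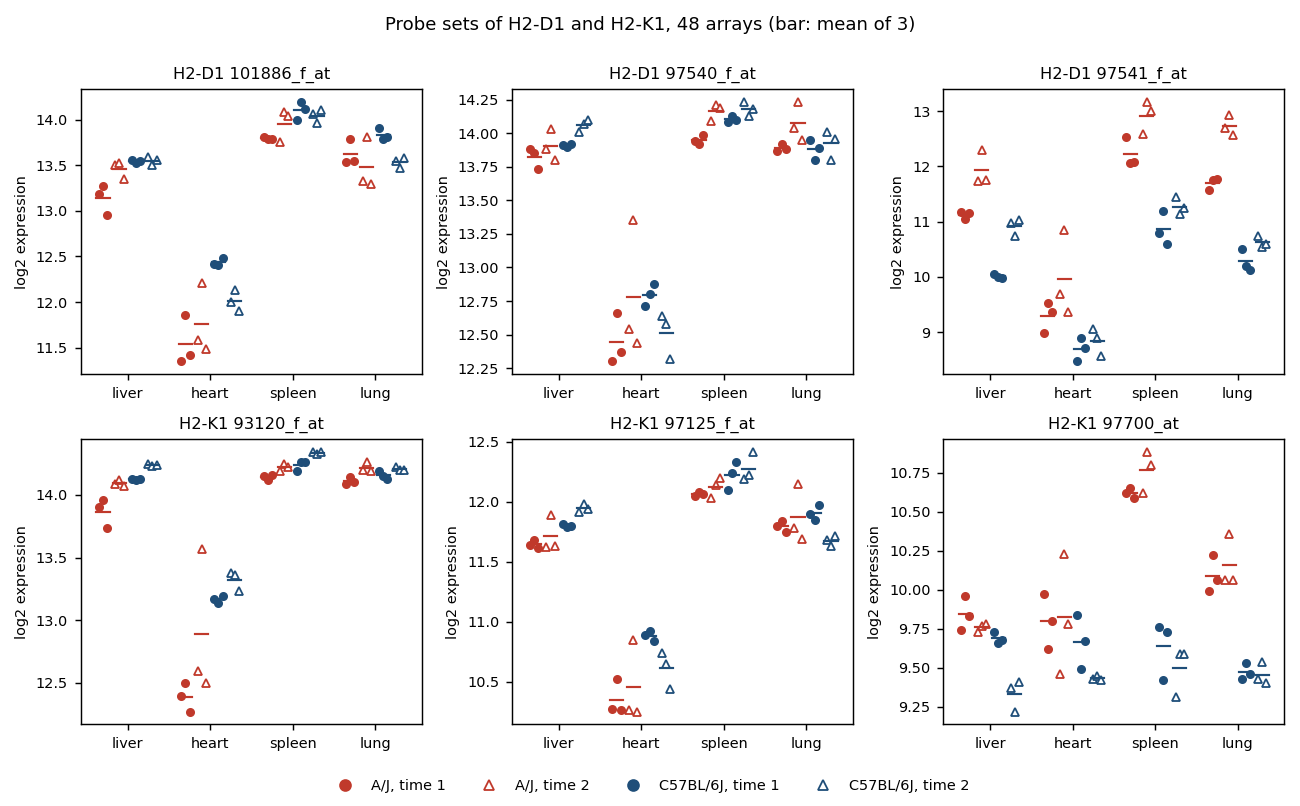
Log2 expression (vertical axis) of the 3 probe sets of H2-D1 and the 3 of H2-K1 by tissue (horizontal axis), with 1 point per array and a bar at the mean of each group of 3. In 97541_f_at and 97700_at the A/J spleens and lungs lie above all C57BL/6J ones, and in the other 4 sets every heart lies below every array of the other tissues.

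Counted over the 16 probe sets, the strain test called 4 in liver (2 higher and 2 lower in A/J), 4 in heart (1 higher, 3 lower), 5 in spleen (2 higher, 3 lower) and 2 in lung (both higher). The same test called 4.07% of all probe sets in liver, 7.48% in heart, 12.7% in spleen and 5.22% in lung. The median difference of the 16 was -0.09 in liver, -0.13 in heart, -0.16 in spleen and 0.01 in lung, against 0.02, 0.00, -0.01 and -0.02 over all probe sets.

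In liver the secreted heavy chain H2-Q10 was lower in A/J. Its livers measured 13.30, 13.35 and 13.26 at time 1 and 13.67, 13.67 and 13.67 at time 2 in A/J, and 13.77, 13.72 and 13.75 at time 1 and 14.07, 13.93 and 14.00 at time 2 in C57BL/6J. At each time the strains did not overlap, and the difference was -0.39 ± 0.05 (1.31-fold lower in A/J, adjusted p = 0.000201). H2-K1 93120_f_at was also lower, by a difference of -0.20 ± 0.05 (adjusted p = 0.0407), a call that leaving out any 1 of the 12 livers removed (adjusted p 0.0537 to 0.09). The liver call of 97700_at was lost without A/J time 2 replicate 1 (adjusted p = 0.0509) or replicate 2 (adjusted p = 0.0527). B2m, Psmb8 and Psmb9 did not pass in liver, with differences of -0.06 ± 0.06, -0.26 ± 0.16 and -0.19 ± 0.12.

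In spleen the transporter gene Tap1 was lower in A/J by 1 of its 2 probe sets. Tap1 103035_at measured 10.77, 10.54 and 10.50 at time 1 and 10.53, 11.02 and 10.64 at time 2 in A/J, against 11.64, 11.58 and 11.62 at time 1 and 12.15, 11.73 and 12.30 at time 2 in C57BL/6J. The strains did not overlap, and the difference was -1.17 ± 0.11 (2.25-fold lower in A/J, adjusted p = 2.5e-05). Tap1 162278_r_at gave 0.10 ± 0.10 (adjusted p = 0.603), and the 2 sets differed by -1.27 (exact permutation p = 0.005, adjusted p = 0.0111). Its neighbour Psmb9 was lower in A/J spleen by a difference of -0.51 ± 0.09 (adjusted p = 0.00184), with values from 11.27 to 12.29 in A/J and from 11.95 to 12.74 in C57BL/6J, apart at time 1 and overlapping at time 2. Tapbp 102689_at was lower by a difference of -0.61 ± 0.11 (adjusted p = 0.00271). Psmb8 (-0.27 ± 0.09, adjusted p = 0.0727), Tap2 (-0.17 ± 0.08, adjusted p = 0.233) and Tapbp 100154_at (-0.36 ± 0.12, adjusted p = 0.0585) did not pass.

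The cell type markers of spleen moved with strain as well. Over all probe sets the spleen strain test called 12.7% in either direction and 6.67% lower in A/J. Erythroid precursor markers were higher in A/J in 5 of 6 probe sets, with array means of 11.87 to 12.81 in A/J and 9.74 to 11.79 in C57BL/6J, and neutrophil markers in 5 of 8. Of 7 B cell probe sets 4 were lower in A/J (11.52 to 11.76 against 11.86 to 12.10), as were 4 of 7 for NK cells (7.53 to 7.66 against 8.01 to 8.18), 6 of 16 for macrophages and 2 of 8 for T cells. Their part in the Tap1, Psmb9 and Tapbp differences was not tested. Without the 5 spleens of high pancreas markers, Tap1 103035_at differed by -1.04 (adjusted p = 0.00666), H2-D1 97541_f_at by 1.58 and H2-K1 97700_at by 1.04, all still past the test. Psmb9 (-0.36, adjusted p = 0.224) and Tapbp 102689_at (-0.40, adjusted p = 0.133) no longer passed.

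In heart B2m and a probe set each of H2-D1 and H2-K1 were lower in A/J, and H2-D1 97541_f_at was higher. B2m measured 11.63, 11.87 and 11.76 in A/J and 12.67, 12.83 and 12.96 in C57BL/6J at time 1, and 12.43, 12.87 and 12.15 in A/J and 13.04, 12.76 and 12.83 in C57BL/6J at time 2. The strains were apart at time 1 and overlapped at time 2. The difference was -0.73 ± 0.13 (1.66-fold lower in A/J, adjusted p = 0.00304). H2-K1 93120_f_at was lower by a difference of -0.61 ± 0.14 (adjusted p = 0.0176). Of these 4 calls only B2m's passed with a trended, robust variance (adjusted p = 0.0124). At time 1 alone 6 of the 16 were lower and none higher, where 1.52% of all were lower: B2m (-1.07), H2-D1 101886_f_at (-0.89), H2-K1 93120_f_at (-0.77), Psmb8 (-0.71), Tap1 103035_at (-0.68) and H2-K1 97125_f_at (-0.53). Of the 3 A/J hearts at time 1, 2 are those of high Gapdh 3′ signal, and these time 1 calls were not tested without them. At time 2 alone only H2-D1 97541_f_at passed (1.13, adjusted p = 0.0358), where 5.23% of all did, and B2m did not (-0.40, adjusted p = 0.162). The strain by time test called none of the 16 in heart.

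Other signals moved with the heart result. Lung epithelium markers averaged 9.61 to 10.10 in A/J hearts and 10.29 to 11.05 in C57BL/6J hearts at time 1, and 9.38 to 9.57 and 9.34 to 10.39 at time 2. Of 16 macrophage probe sets 5 were lower in A/J hearts, where 2.91% of all probe sets were. The macrophage array means were 8.28 to 8.43 against 8.45 to 8.62. T cell markers were called in 0 of 8 (7.74 to 7.90 against 7.74 to 7.82). The part of these markers in the result was not tested. Without the 2 hearts of high Gapdh 3′ signal, B2m still differed by -0.58 (adjusted p = 0.0257) and H2-D1 97541_f_at by 1.03 (adjusted p = 0.0184), but 101886_f_at (-0.36, adjusted p = 0.119) and 93120_f_at (-0.51, adjusted p = 0.0968) did not pass. The 101886_f_at call was also lost without any 1 of A/J time 1 replicate 3, A/J time 2 replicate 3 or the 3 C57BL/6J time 1 hearts (adjusted p 0.0506 to 0.0536). Leaving out A/J time 2 replicate 2 raised the heart count from 4 to 7, adding Psmb8 (-0.45), Tap1 103035_at (-0.53) and H2-K1 97125_f_at (-0.45).

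**Figure D3:**
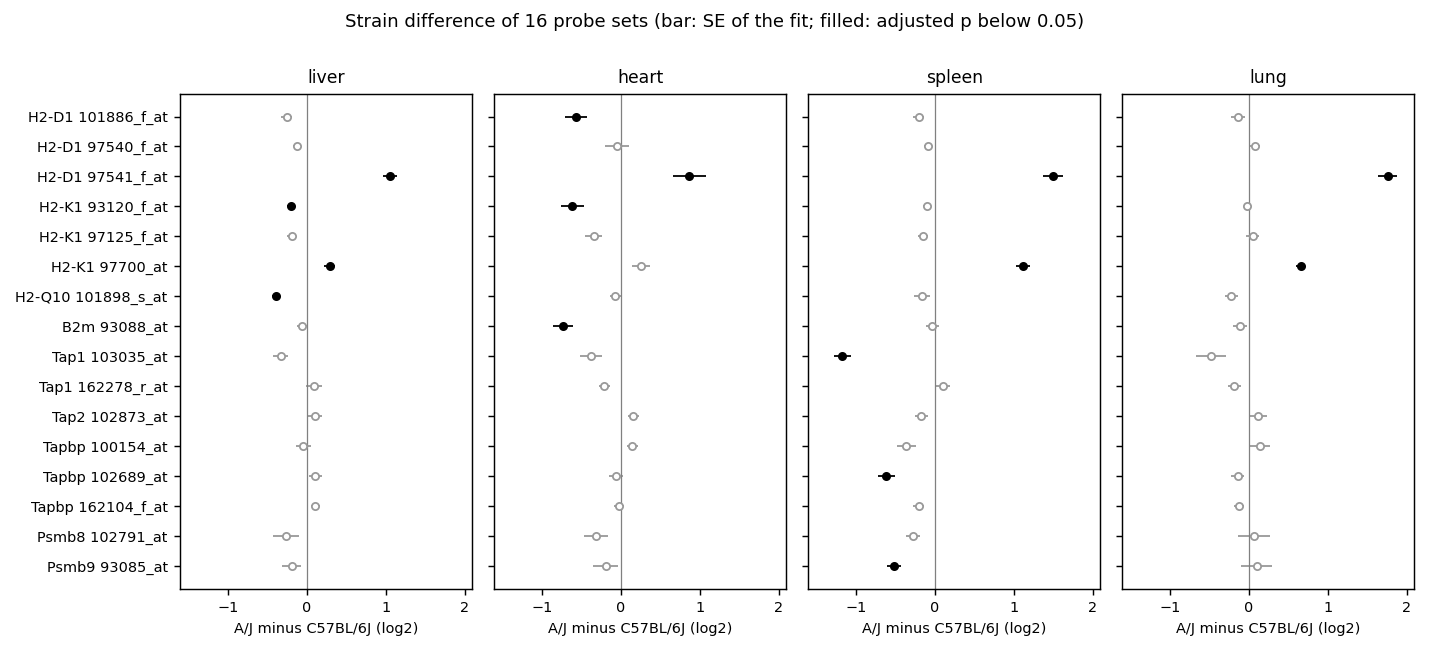
Strain difference (A/J minus C57BL/6J, log2, horizontal axis) of each of the 16 probe sets (vertical axis) in the 4 tissues, with the standard error of the limma fit over 12 arrays as bars and filled points where the adjusted p is under 0.05. H2-D1 97541_f_at lies right of 0 in all 4 tissues, Tap1 103035_at lies farthest left in spleen (-1.17) and B2m in heart (-0.73).

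In lung only H2-D1 97541_f_at and H2-K1 97700_at passed. Psmb8 and Psmb9 had differences of 0.07 ± 0.20 and 0.10 ± 0.20 over both times, with opposite signs at each: Psmb9 gave -0.49 at time 1 (adjusted p = 0.202) and 0.68 at time 2 (adjusted p = 0.0226), and Psmb8 -0.47 (adjusted p = 0.32) and 0.61 (adjusted p = 0.0547). Psmb9 measured 10.12, 10.37 and 10.31 in A/J and 10.92, 10.54 and 10.82 in C57BL/6J at time 1, and 11.18, 11.66 and 10.84 in A/J and 10.51, 10.42 and 10.70 in C57BL/6J at time 2. The strains did not overlap at either time and changed places. The change of the strain difference was 1.18 ± 0.24 for Psmb9 (adjusted p = 0.0673), 1.09 ± 0.27 for Psmb8 (adjusted p = 0.11) and 0.96 ± 0.27 for Tap1 103035_at (adjusted p = 0.143), so none passed. Without A/J time 2 replicate 3 all 3 passed, at 1.37 (adjusted p = 0.0209), 1.29 (adjusted p = 0.0387) and 1.23 (adjusted p = 0.0209). Psmb9 also passed without C57BL/6J time 1 replicate 2 (1.29, adjusted p = 0.043). NK cell markers were lower in A/J lung in 2 of 7 probe sets and neutrophil markers in 3 of 8, where 2.52% of all probe sets were lower. Their array means were 7.05 to 7.36 against 7.30 to 7.64 and 8.94 to 9.58 against 9.45 to 10.18. B cell markers averaged 9.60 to 9.70 in A/J against 9.74 to 9.94 at time 1, and 9.71 to 10.26 against 9.64 to 9.83 at time 2, so A/J was lower at time 1 and ran higher, with overlap, at time 2. The excess of the Gapdh 3′ over the 5′ probe set was 1.36 to 1.96 in the A/J time 2 lungs and 0.64 to 1.37 in the other lungs. The part of these signals was not tested.

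Whether the strain difference itself varied with tissue was tested over all 48 arrays. The F test passed for 8 of the 16 probe sets, where 18.5% of all were called. H2-K1 97700_at and 93120_f_at, B2m and Tapbp 102689_at had the highest F values. For B2m the strain difference was -0.73 in heart and between -0.11 and -0.03 in the other tissues (F = 10.5, adjusted p = 0.000489). In those other tissues B2m lay at the 99.3rd to 99.5th percentile of all probe sets, and in heart at the 97.1st. Whether compression near the top of the range made the differences smaller there was not tested. For Tapbp 102689_at the strain difference was -0.61 in spleen and between -0.14 and 0.11 elsewhere (F = 10.1, adjusted p = 0.000663). For Tap1 103035_at it was -1.17 in spleen and between -0.48 and -0.33 elsewhere (F = 6.46, adjusted p = 0.00949). H2-D1 97541_f_at kept 1 sign and ranged from 0.87 to 1.76 (F = 6.2, adjusted p = 0.0117). Psmb8, Psmb9 and Tap2 did not pass (adjusted p = 0.585, 0.252 and 0.201).

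The limma test of strain by time called 1 of the 16 in liver, where 4.9% of all were called, and none in heart (0.386% of all), spleen (0.209%) or lung (0.177%). With an unadjusted p under 0.05 there were 7 of the 16 in liver, where 24% of all probe sets were under it, 9 in heart (10.7% of all), 2 in spleen (19.6%) and 8 in lung (18%). The liver call was Tapbp 102689_at, whose strain difference moved from -0.12 at time 1 to 0.34 at time 2, by 0.46 ± 0.10 (adjusted p = 0.0231). The livers measured 10.72, 10.68 and 10.71 in A/J and 10.94, 10.75 and 10.78 in C57BL/6J at time 1, and 10.96, 11.12 and 10.99 in A/J and 10.74, 10.65 and 10.66 in C57BL/6J at time 2. A/J was the lower strain at time 1 and the higher one at time 2. The call was lost without any 1 of A/J time 1 replicate 1 or 2 or C57BL/6J time 2 replicate 2 or 3 (adjusted p 0.0509 to 0.0685). The other Tapbp sets gave 0.06 ± 0.17 and 0.23 ± 0.10.

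Between times some members shifted alike in both strains, which cannot be told apart from the array run. Tapbp 100154_at in liver went from between 9.96 and 10.19 over both strains at time 1 to between 10.47 and 11.01 at time 2, and H2-D1 97541_f_at in liver went from between 9.98 and 10.05 to between 10.74 and 11.03 in C57BL/6J and from between 11.04 and 11.17 to between 11.73 and 12.30 in A/J. B2m in heart did not shift alike, from between 11.63 and 11.87 to between 12.15 and 12.87 in A/J and from between 12.67 and 12.96 to between 12.76 and 13.04 in C57BL/6J. No test of time was made.

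H2-T23 is listed by 98472_at, together with H2-T-ps, and by a set of 10 symbols described after it. The first was higher in A/J spleen by 0.90 ± 0.11 (adjusted p = 0.000179) and in A/J lung by 0.70 ± 0.11 (adjusted p = 0.00208), and gave 0.29 ± 0.16 in heart (adjusted p = 0.347). In liver its strain difference went from -0.25 at time 1 to 0.54 at time 2, by 0.79 ± 0.17 (adjusted p = 0.0226). The A/J livers measured 9.71, 9.61 and 9.59 and then 10.28, 10.77 and 10.31, and the C57BL/6J livers 10.06, 9.78 and 9.81 and then 9.97, 10.01 and 9.75. At time 2 it was lower in heart than in spleen by a difference of -2.48 ± 0.16 and than in lung, -1.38 ± 0.16. A set listing 10 symbols, H2-T23, H2-K1 and H2-D1 among them (102161_f_at), was lower in A/J liver with a difference of -0.47 ± 0.08 (adjusted p = 0.00215) and in A/J spleen with -0.33 ± 0.08 (adjusted p = 0.0109). The sets 95773_at and 97174_r_at, which list H2-D1 or H2-K1 and H2-Q10 with H2-Q genes, passed the strain test in 0 of the 4 tissues.

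Some members also varied together between arrays of one group. Over the deviations of the 48 arrays from their group means, Pearson's r was 0.89 for H2-K1 93120_f_at with H2-D1 97540_f_at, 0.88 for Tap1 103035_at with Psmb9, 0.84 for Psmb8 with Psmb9 and 0.82 for Psmb8 with Tap1, which are among the highest of the 120 pairs. The median r was 0.30, with 83 pairs above 0 and 37 below. Tapbp 162104_f_at was below 0 in 13 of its 15 pairs (-0.43 with Tap1 103035_at), Tap1 162278_r_at in 11 (-0.50 with Tapbp 100154_at) and H2-Q10 in 10 (-0.32 to 0.24). Most of the 48 arrays are not of liver, and outside liver H2-Q10 lay at the 49.8th to 60.7th percentile of all probe sets. Its r within liver alone is not given. The 2 genes of one pair share an array, and Tap1 and Psmb9 share the 225 bases shown above. H2-K1 93120_f_at and H2-D1 97540_f_at are both f sets, which may hold signal of the same class I genes. These values therefore describe the arrays and carry no test. One replicate number ranked high for most of the 16 probe sets. In A/J at time 2, replicate 2 was the highest of the 3 arrays for 13 of the 16 probe sets in heart, 12 in liver, 12 in lung and 11 in spleen, and its mean deviation from the group mean was 0.34, 0.15, 0.19 and 0.07. In no other group did an array hold the highest value for more than 10 of the 16. The same count over all probe sets is not given here, and several of the 16 belong to one gene. The medians over all probe sets in replicates 1 to 3 were 8.922, 8.945 and 8.924 in heart and 8.919, 8.889 and 8.927 in liver. They were 8.886, 8.900 and 8.906 in lung and 8.938, 8.906 and 8.914 in spleen. Whether the rank is a trait of the members or of the whole array was not tested. A list of 16 interferon gamma probe sets deviated the same way in those arrays, by 0.15 in heart, 0.20 in liver, 0.16 in lung and 0.15 in spleen. Irf1, a transcription factor induced by interferon gamma, measured 10.31, 10.69 and 10.33 in replicates 1 to 3 of heart, 10.50, 10.74 and 10.37 of liver, 11.71, 12.11 and 11.50 of lung and 11.65, 12.18 and 11.81 of spleen. Cxcl9, of the same list, did not follow in lung (6.80, 6.75 and 6.83) or stand apart in heart (7.14, 7.24 and 7.24). It measured 7.42, 8.58 and 7.08 in liver and 8.20, 8.56 and 8.15 in spleen. The part of interferon signalling was not tested, and the sources do not say whether these 4 samples came from one mouse.

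**Figure D4:**
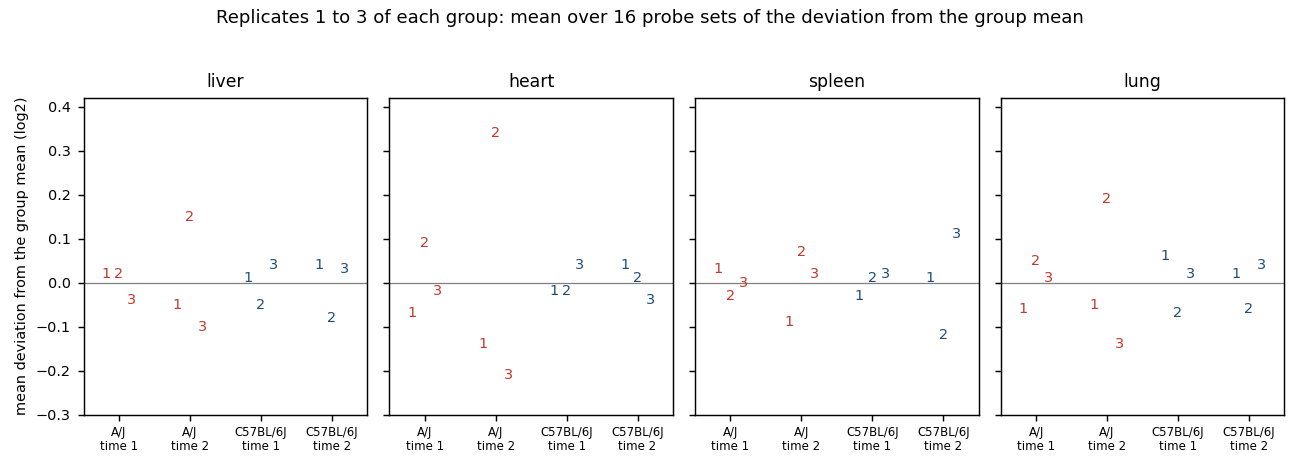
Mean over the 16 probe sets of the deviation from the group mean (log2, vertical axis) for each array, drawn as its replicate number, in the 4 groups of each tissue (horizontal axis). Replicate 2 of A/J at time 2 is the highest in its group in all 4 tissues, at 0.34 in heart, 0.15 in liver, 0.19 in lung and 0.07 in spleen.

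Across the 16 group means, the gene outside the members with the pattern most like each member was named by Pearson's r, as a description. For H2-K1 93120_f_at it was H2-K2 (r = 0.975), another class I sequence, and H2-K2 also came first for B2m (0.943) and second for H2-D1 97540_f_at (0.967), behind Serp1 (0.968). H2-Q10 was most like the liver secretory genes Itih3 (0.996), Apoc2 (0.995) and C8g (0.994). Tap1 103035_at was most like the chemokine gene Ccl5 (0.987), and Tap2 like Sirpa (0.977) and Itgb2 (0.977). Psmb8 and Psmb9 shared their nearest genes, the leukocyte genes Cd53, Tyrobp and Plac8, with r of 0.976 to 0.986. Tapbp 162104_f_at was less closely matched, by Zfp292 at 0.927. The 16 means differ by tissue as well as by strain and time.

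Genes around the members in the same pathway were read from lists given by name. Over all probe sets the strain test called 2.53% lower in A/J in liver, 2.91% in heart, 6.67% in spleen and 2.52% in lung, and the counts of the lists stand beside these shares. Of 12 probe sets for 11 other class I heavy chains, none was higher in A/J, and 3 were lower in liver, 3 in heart, 4 in spleen and 0 in lung. H2-Q4 was lower by a difference of -0.93 in liver, -0.88 in heart and -0.55 in spleen, H2-Q5 by -0.76, -0.55 and -0.69, and Hfe, a class I-like regulator of iron uptake, by -0.50, -0.70 and -0.38. Of 9 probe sets for class I assembly and trimming, only Sec61b in spleen passed (-0.45). Of 24 for other proteasome subunits and activators, Psme1, a subunit of the interferon-induced proteasome activator, was lower in liver (-0.44) and spleen (-0.56) and higher in heart (0.28), Psma1 was lower in liver (-0.28) and Psmb10, the third immunoproteasome subunit, was lower in spleen (-0.38). Of the 16 interferon gamma probe sets, 1 was lower in liver (Irf9, -0.34), 2 in heart (Gbp2, -0.49, and Cxcl9, -0.25), 0 passed in lung, and in spleen Igtp was higher (0.58) and 5 were lower, among them Gbp2 (-0.54) and Ifngr2 (-0.51). Of 15 probe sets for NF-kappa B and regulatory factors, 3 were lower in spleen, among them Nfkb2 (-0.47), and 0 passed elsewhere. Of 13 class II probe sets, 10 were lower and 1 (H2-Ea, 1.04) higher in A/J spleen, 4 were lower in heart, 1 in liver and 2 in lung. Cd74, the class II chaperone, differed by -1.28 in heart. The median differences of the class I, assembly, proteasome, interferon gamma and NF-kappa B lists lay between -0.10 and 0.09 in every tissue.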

How the data were processed

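Per the labels, total RNA of about 20 micrograms per sample was made into targets by the array maker's standard procedure. The authors deposited log2 values for 12488 probe sets on 48 arrays. How they summarised, scaled and background-corrected them is not stated in the sources used here, and the file holds no detection calls. The values were used as deposited, and the 66 control probe sets were left out. Dim values may be background, values near an array's top may be compressed, and 3 arrays per group limit the precision.

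Samples were grouped by the labels. limma 3.58.1 in R 4.3.3 was fitted over 12422 probe sets with Benjamini-Hochberg adjustment and a limit of 0.05: strain within a tissue with time as a term, strain by time, strain by tissue over all arrays, and tissues at time 2 with strain as a term. The named genes are the members, the members' 3 most alike genes and list genes that passed. The members and lists were chosen with earlier results of these data known. Errors are the fit's SE unless stated. The alternatives were other scaling and variance settings, a dim filter, a replicate block, each time or strain alone, and arrays left out. The fits were tested on simulated data with independent normal noise, so effects shared by a litter were not simulated. Strain effects of 1 were recovered in 100% of 100 probe sets in each tissue, and 5.2% to 5.7% of calls were false. For strain by time 3.9% to 9.2% of calls were false. Over all probe sets, same-numbered samples had deviations correlated above 0.1 in 7 of 24 pairs across strains and 14 of 72 across tissues, so the numbers were not taken as pairs.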

Additional observations from a re-analysis of the deposited data

Results flagged for a closer look

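The strain difference of 8 probe sets differed between tissues by an F test over all 48 arrays (limma, adjusted p). H2-K1 97700_at had F = 20.4 (adjusted p = 1.37e-06), with A/J higher by 1.12 in spleen and by 0.26 in heart. H2-K1 93120_f_at had F = 8.66 (adjusted p = 0.00185), with A/J lower by a difference of -0.61 in heart and -0.02 in lung. B2m had F = 10.5 (adjusted p = 0.000489), Tap1 103035_at F = 6.46 (adjusted p = 0.00949) and H2-D1 97541_f_at F = 6.2 (adjusted p = 0.0117). The 3 Tapbp probe sets had F = 10.1 (102689_at, adjusted p = 0.000663), F = 4.45 (162104_f_at, adjusted p = 0.0468) and F = 4.43 (100154_at, adjusted p = 0.0473). The calls of the other 6 held in all 54 alternatives, while 162104_f_at passed in 19 of 54 and 100154_at in 26 of 54.

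The strain difference of Tapbp 102689_at in liver differed between times by 0.46 (adjusted p = 0.0231), from -0.12 at time 1 to 0.34 at time 2, and it is lost under several alternatives given below.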

How the results depend on the processing

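Of the single probe set results under each alternative, 5163 kept their side of the limit, 164 lost a call and 91 gained one. Another 6 reversed direction with a call before or after. A change of sign between results that both did not pass was counted with the 5163, and F tests have no direction. The cause was not tested. The strain count in liver went from 4 to 2 with a replicate block, in heart from 4 to 1 with a trended, robust variance and to 1 at time 2 alone, in spleen from 5 to 9 with array weights and to 3 without the spleens of high pancreas markers, and in lung from 2 to 4 with array weights or at time 2 alone. The strain by time count in liver went from 1 to 2 with quantile normalization, to 3 with array weights, and to 0 with a replicate block or the spread of all 48 arrays. With that spread it was 1 in heart (B2m) and 3 in lung, and with array weights 2 in lung. Liver against lung called 14 at time 1 in place of 9, and spleen against lung called 6 in A/J alone in place of 10. The replicate block moved no other count by over 1.5 times. Replicate numbers were not taken to pair the samples, since over all probe sets the correlations of deviations ran from -0.577 to 0.363 across strains and from -0.337 to 0.287 across tissues. For replicate 2 of A/J at time 2, highest in all 4 tissues for most members, they ran from -0.163 to 0.287 across tissues.

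Leaving out 1 array at a time gave strain counts of 2 to 4 in liver, 3 to 7 in heart, 5 to 7 in spleen and 2 to 3 in lung. Strain by time gave 0 to 1 in liver, 0 to 1 in heart (Tapbp 102689_at without A/J time 1 replicate 2), 0 to 0 in spleen and 0 to 3 in lung, and strain by tissue gave 6 to 9. Tissue counts ran from 11 to 12 (liver against heart), 11 to 12 (liver against spleen), 8 to 9 (liver against lung), 15 to 16 (heart against spleen), 13 to 14 (heart against lung) and 8 to 12 (spleen against lung).

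The reversals were in liver against lung for H2-K1 97125_f_at at time 1 (-0.13), for Tap1 162278_r_at in A/J alone (0.31) and at time 1 (0.41) and for Tapbp 102689_at in A/J alone (0.24), in liver against spleen for Tapbp 102689_at in A/J alone (0.24), and in spleen against lung for Tapbp 100154_at in A/J alone (-0.05). In the simulation strain by time effects of 0.5 were recovered in 26% to 31% of probe sets, so smaller changes of a strain difference are mostly beyond these arrays.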
